A study of Mus musculus with 6 samples.

Results

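The genes described here are 10 members of the S100 family, a group of small calcium-binding proteins. They are S100a1, S100a3, S100a4, S100a5, S100a6, S100a8, S100a9, S100a10, S100a11 and S100a13. They were taken by name from the 35293 mouse genes to which the quantified transcripts could be assigned, and each had at least 1 transcript in the tables. The set was proposed with the strain values of these same libraries in view. Their strain differences are therefore given as a description, without p-values.

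S100 proteins carry a pair of EF-hand loops, the helix-loop-helix motif that holds a calcium ion, and most of them work as dimers. When cytosolic calcium rises, many S100 dimers change shape and grip target proteins, among them annexins, cytoskeletal proteins and chaperone cofactors. Some S100 proteins also leave the cell and act on receptors such as RAGE and TLR4. In mast cells, calcium entry is the step that links the cross-linked IgE receptor to granule release. S100a8 and S100a9 together form calprotectin, which is best known as an abundant cytosolic protein of neutrophils.

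The libraries were made from bone marrow-derived mast cells (BMMCs) on day 20 of culture, from naive wild-type mice of the BALB/c or the C57BL/6 strain. Cells of both strains had grown with the cytokines SCF, TGF-β1, IL-3 and IL-9, and the comparison asks how the resting cells of the strains differ. There were 3 libraries of BALB/c cells (S9, S10 and S11) and 3 of C57BL/6 cells (S12, S13 and S14), and no other treatment was given. The study describes them as biological replicates. The age and sex of the marrow donors, and whether marrow was pooled, are not given in the sources used here, so p-values measure the spread between these libraries.

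Reads assigned to genes numbered 28271157 to 35870394 in the BALB/c libraries and 28799657 to 37098550 in the C57BL/6 libraries. The strains separated on the first principal component, which held 89.6% of the variance. The 10 mast cell markers summed, in CPM (a gene's counts scaled to the library's total), to 30766 to 33665 in BALB/c libraries and 33774 to 35914 in C57BL/6 libraries. Cpa3 and Cma1 were the highest of them, and Hdc was low at 1.76 to 5.91 CPM. Tpsb2 (5.01-fold) and Hdc (2.29-fold) were called higher in C57BL/6, while Cma1 and Mitf were lower there by less than the fold threshold (log2 fold changes -0.43 and -0.23, edgeR adjusted p = 0.00107 and 0.00124). Kit, Fcer1a and Ms4a2 were higher in C57BL/6, also by less than that threshold (log2 fold changes 0.14, 0.13 and 0.25, edgeR adjusted p = 0.038, 0.0127 and 0.000257). The neutrophil markers Ngp, Ltf, Camp, Elane, Retnlg and Lcn2 had no read in any library, and the summed level of that list of 10 genes was 1.46 to 1.92 CPM and 1.56 to 2.22 CPM. Lists of markers for other cell types are given below beside the S100 values. In bulk RNA, fewer cells of a type and less RNA per cell cannot be told apart.

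All 10 genes lie on chromosome 3 and are annotated as protein coding (GENCODE vM39 on GRCm39). They form 2 groups. The first holds 8 genes over 186981 bases, chr3:90416091-90603071, in the order S100a13, S100a1, S100a3, S100a4, S100a5, S100a6, S100a8 and S100a9. The second holds S100a11 and S100a10 over 60129 bases, chr3:93414382-93474510, and starts 2811310 bases after the end of the first. S100a1 and S100a9 are on the reverse strand and the other 8 genes on the forward strand. The reverse-strand S100a1 (chr3:90418340-90421848) lies inside the span of S100a13 (chr3:90416091-90431912). S100a6 occupies chr3:90520140-90535843, S100a4 chr3:90511074-90513354, S100a11 chr3:93414382-93435293 and S100a10 chr3:93462213-93474510.

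The sequence just upstream of the start is shown for S100a6, S100a4 and S100a11, the 3 members that differed most between the strains among the 6 with enough reads to be tested. These are reference C57BL/6J bases from the RefSeq promoter table (GRCm38.p6). Each was found at a single exact place on the forward strand of chromosome 3 in GRCm39, whose coordinates are given. Other chromosomes were not searched. Each begins 250 bases before the RefSeq start and is printed up to the first annotated exon base. The S100a11 window lies inside the annotated span of the gene, so its RefSeq start is an internal one there. In that window, 126 of the 250 bases fall in annotated exons. Capitals mark a match to any of 5 motifs searched on both strands: the TATA box spelled TATAAA, the box whose name CCAAT is its spelling, the GC box spelled GGGCGG, the AP-1 site spelled TGACTCA or TGAGTCA, and the GATA site spelled AGATAA or TGATAA. All 3 lie on the forward strand, at chr3:90519951-90520139, chr3:90510827-90511073 and chr3:93427553-93427676.
S100a6: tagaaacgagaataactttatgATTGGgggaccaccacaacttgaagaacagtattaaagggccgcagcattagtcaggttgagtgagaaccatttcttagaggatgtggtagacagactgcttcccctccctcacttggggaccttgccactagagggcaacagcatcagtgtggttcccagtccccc
S100a4: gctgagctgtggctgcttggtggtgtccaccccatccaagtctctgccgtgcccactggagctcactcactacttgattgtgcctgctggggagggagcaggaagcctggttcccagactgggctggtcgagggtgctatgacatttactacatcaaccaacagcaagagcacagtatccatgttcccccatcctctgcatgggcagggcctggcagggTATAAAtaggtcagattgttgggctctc
S100a11: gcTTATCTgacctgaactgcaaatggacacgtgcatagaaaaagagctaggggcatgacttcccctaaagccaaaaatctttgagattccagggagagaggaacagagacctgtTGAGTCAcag

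The windows held different letters. S100a6 had a reverse CCAAT box at -228, S100a4 a TATA box at -31, and S100a11 a reverse GATA site at -248 and an AP-1 site at -136. In the rest of its 250-base window, S100a11 had a further AP-1 site at -38 and GC boxes at -64, -52 and -24. Over all 32851 windows of 250 bases in the promoter table, 33.8% held the CCAAT box, 12.4% the TATA box, 32.7% the GC box, 16.6% the GATA site and 4.46% the AP-1 site. A match is a string of letters and not evidence of binding. Since the bases are those of C57BL/6J, they do not show whether BALB/c differs there.

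Levels were compared between genes in TPM, the Salmon unit that scales to the library's total and allows for transcript length. S100a10, the annexin A2 partner also called p11, was the highest member in BALB/c cells with 424 ± 27.4 TPM (SD, n = 3). It was followed by S100a11 with 274 ± 16.9 TPM, S100a1 with 138 ± 3.55 TPM and S100a13 with 113 ± 3.11 TPM. S100a6 came after these with 6.69 ± 1.42 TPM, and S100a4 after it with 1.79 ± 0.808 TPM. The ranges of neighbours in this order did not overlap.

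In C57BL/6 cells the order changed at a single gene. S100a10 with 493 ± 22.6 TPM and S100a11 with 480.4 ± 11.4 TPM had overlapping ranges at the top, and S100a6 came next with 209 ± 22.4 TPM. S100a1 with 142 ± 6.94 TPM and S100a13 with 141 ± 4.88 TPM overlapped each other below it. S100a6 thus lay below S100a1 and S100a13 in each BALB/c library and above both in each C57BL/6 library. Among genes with reads, S100a6 held rank 7627 by mean TPM in BALB/c and rank 465 in C57BL/6. S100a10 held ranks 255 and 198, and S100a11 ranks 392 and 202.

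**Figure D1:**
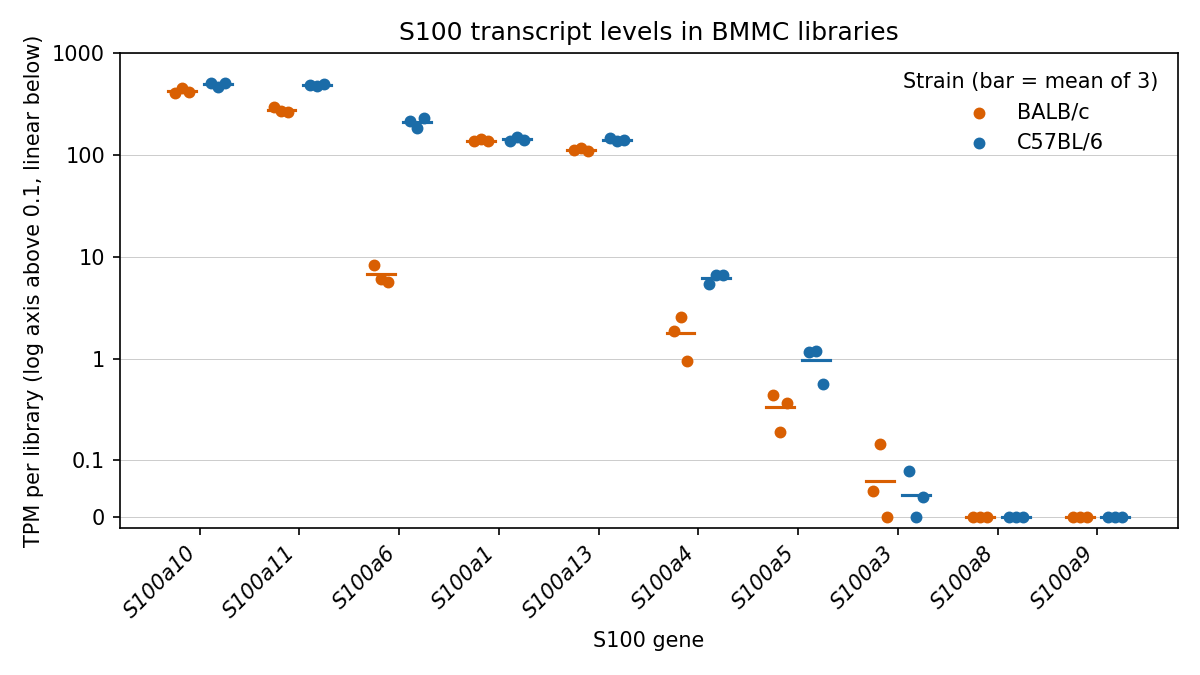
Level of each S100 gene in TPM (vertical axis, log scale above 0.1 and linear below) for the 3 BALB/c and 3 C57BL/6 libraries, with a bar at the mean of each strain. S100a6 runs from 5.66 to 8.31 TPM in BALB/c and from 184 to 228 TPM in C57BL/6, while S100a8 and S100a9 sit at 0 in every library.

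The summed level of the 10 genes was 957 ± 32.1 TPM in BALB/c and 1473 ± 52.4 TPM in C57BL/6, and the strains did not overlap. Without S100a6 the sums were 950.5 ± 32.0 and 1264 ± 30.1 TPM. S100a6 made up 0.699 ± 0.147% of S100 transcripts in BALB/c and 14.2 ± 1.03% in C57BL/6. The share of S100a10 was 44.2 ± 1.83% in BALB/c and 33.5 ± 0.508% in C57BL/6. S100a1 went from 14.4 ± 0.264% to 9.67 ± 0.797%, and S100a13 from 11.8 ± 0.104% to 9.55 ± 0.220%. S100a10, S100a1 and S100a13 were therefore a smaller part of the family in C57BL/6 although their own mean TPM was not lower there.

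**Figure D2:**
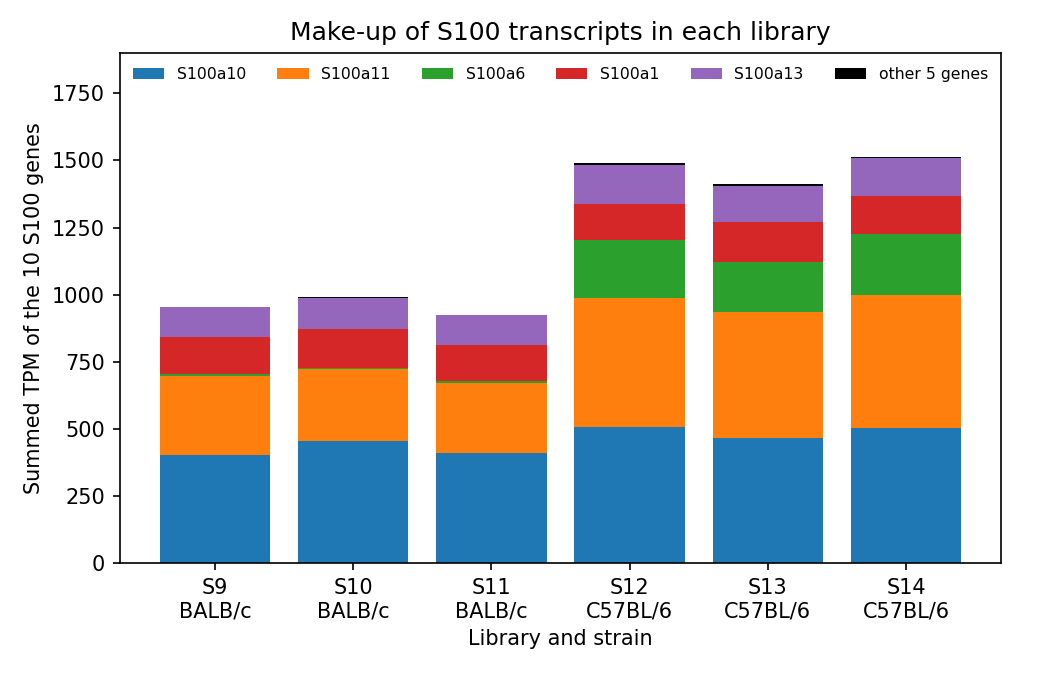
Summed TPM of the 10 S100 genes in each library, stacked by gene (vertical axis, TPM; horizontal axis, library and strain). The S100a6 band is a thin line in the BALB/c libraries and wider than the S100a1 and S100a13 bands in the C57BL/6 libraries, where the sum runs from 1414 to 1514 TPM against 926 to 990.0 TPM in BALB/c.

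Strain differences are log2 fold changes, signed so that a positive value is higher in C57BL/6, from an edgeR fit over all 12458 tested genes, on estimated counts with TMM scaling. A gene was called when its adjusted p was under 0.05 and its fold change above 2. Of the 10 members, 6 passed the filter on low counts. All 6 had every C57BL/6 library above every BALB/c library in CPM, and 3 of them, S100a6, S100a4 and S100a11, were past both thresholds with the higher level in C57BL/6. Over all tested genes, 13.3% were called, with the higher level in C57BL/6 for 7.73% and in BALB/c for 5.54%. The strains did not overlap in CPM for 61.9% of tested genes, and 31.1% had every C57BL/6 library above every BALB/c library. The members were chosen on this contrast, so nothing is read from these counts. The median log2 fold change was 0.75 over the 6 members and -0.01 over all tested genes.

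S100a6, also called calcyclin, binds the calcyclin-binding protein Cacybp and several annexins. It had 99, 69 and 82 estimated counts in S9, S10 and S11, against 2909, 2194 and 3470 in S12, S13 and S14. In CPM these were 3.11, 2.32 and 2.18 in BALB/c against 91.0, 81.1 and 98.0 in C57BL/6. The lowest C57BL/6 library was far above the highest BALB/c library, and no library stood between the groups. Reads of both strains were assigned to the same reference transcripts, and loss of BALB/c reads to sequence variants was not tested. The log2 fold change was 5.16 ± 0.12 (SE), a 35.7-fold difference, which was rank 99 from the top among the tested genes. The ratio of mean TPM was 31.3. Over the alternative normalizations, filters, tests and left-out libraries the log2 fold change ran from 4.78 to 5.33. All reads came from its single listed transcript, NM_011313.2. None of the 2547 words of 31 bases in the GENCODE transcripts of S100a6 occurs in transcripts of another gene on the same strand. Those transcripts are not the quantified RefSeq one, for which sharing was not tested.

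S100a4, also called metastasin, binds non-muscle myosin heavy chain Myh9. Its neighbour S100a5 is a member known mainly from olfactory neurons. S100a4 had 13, 17 and 8 counts in BALB/c and 43, 46 and 59 counts in C57BL/6, or 0.408, 0.570 and 0.213 CPM against 1.35, 1.70 and 1.67 CPM. The groups did not overlap, though all 6 values were low. S100a4 reached the level of the filter in all 3 C57BL/6 libraries and in 2 of the 3 BALB/c libraries, so it would have passed through C57BL/6 alone. The log2 fold change was 2.01 ± 0.33, a 4.02-fold difference, and ran from 1.40 to 2.35 over the 15 alternatives that tested S100a4. With at least 10 counts required in every library it was not tested, since S11 had 8. The BALB/c libraries varied more, with a coefficient of variation of 45.2% in TPM against 11.3% in C57BL/6. The transcript NM_011311.2 held all S100a4 reads but 1.91 in S14. Of the 31-base words of the GENCODE transcripts of S100a4, 27.2% also occur in Gm42674, an overlapping gene model. Sharing by the quantified transcripts was not tested, so this low count is uncertain.

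S100a5 had 3, 1 and 3 counts in BALB/c and 9, 8 and 4 counts in C57BL/6. It did not pass the filter and was not tested. Its level was 0.332 ± 0.130 TPM in BALB/c and 0.965 ± 0.351 TPM in C57BL/6, and the TPM ranges did not overlap. These values rest on few reads and mix transcripts within each strain. All S100a5 reads lay on the predicted XM_006501181.2 in S9, S11, S12 and S13, and on NM_011312.2 in S10 and S14. S100a3, a member known from hair cuticle that lies next to S100a4, had 1, 3 and 0 counts in BALB/c and 2, 0 and 1 counts in C57BL/6. No strain difference was detectable for S100a3 at this depth.

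S100a11, also called calgizzarin, binds annexin A1 through the annexin's N-terminal tail. It had 2082, 1817 and 2260 counts in BALB/c and 3919, 3336 and 4508 counts in C57BL/6. In CPM these were 65.4, 61.0 and 60.1 against 123, 123 and 127, so the groups were tight and did not overlap. The log2 fold change was 1.002 ± 0.04, a 2.002-fold difference that lay at the fold threshold itself. It fell under the threshold in 9 of the 16 alternatives, among them those leaving out S10, S11 or S14, and the ratio of mean TPM was 1.75. Of the 31-base words of the GENCODE transcripts of S100a11, 12.9% also occur in other annotated models, among them Gm57150 and Gm12854. A part of the S100a11 reads could belong to such copies, but sharing by the quantified transcript was not tested.

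S100a10 does not respond to calcium because its loops have lost the residues that hold the ion, and it forms a tetramer with annexin A2. It had 4187, 4487 and 5188 counts in BALB/c and 5992, 4840 and 6709 counts in C57BL/6. The levels were 132, 151 and 138 CPM against 188, 179 and 190 CPM, without overlap. The log2 fold change of 0.40 ± 0.05, or 1.32-fold, was under the fold threshold and ran from 0.22 to 0.46 over the alternatives. In TPM the BALB/c libraries held 404, 455 and 411 and the C57BL/6 libraries 507, 467 and 505.

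S100a1 is best known in heart and skeletal muscle, where it acts on the calcium pump and the ryanodine receptor. S100a13 takes part in the export of proteins without a signal peptide, such as Fgf1 and Il1a. S100a13 had 1321, 1304 and 1582 counts in BALB/c and 1953, 1599 and 2130 counts in C57BL/6, or 41.5, 43.8 and 42.1 CPM against 61.1, 59.1 and 60.2 CPM. Its log2 fold change was 0.50 ± 0.04, or 1.42-fold, without overlap between the groups. S100a1 had 1301, 1299 and 1591 counts in BALB/c and 1487, 1433 and 1730 counts in C57BL/6. In CPM, the levels of S100a1 were 40.9, 43.6 and 42.3 against 46.5, 53.0 and 48.9, with a log2 fold change of 0.23 ± 0.05. In TPM the strains overlapped for S100a1, at 136, 142 and 136 against 136, 150 and 141, so its small difference depends on the scale. The S100a1 and S100a13 transcripts overlap on opposite strands. Of the 31-base words of the GENCODE transcripts of S100a1, 81.5% occur in reverse in those of S100a13. The kit marks strand, but the strand setting used to assign reads is not given in the sources used here, so the division of reads within this pair is uncertain.

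S100a8 and S100a9 had 0 reads in all 6 libraries. A count of 0 allows a level of up to 0.0798 to 0.111 CPM, depending on the library (3 counts per library, counting error only). The calprotectin pair was thus not detectable at this depth in cells of either strain, as were 6 of the 10 neutrophil markers. No fold is given for these genes.

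**Figure D3:**
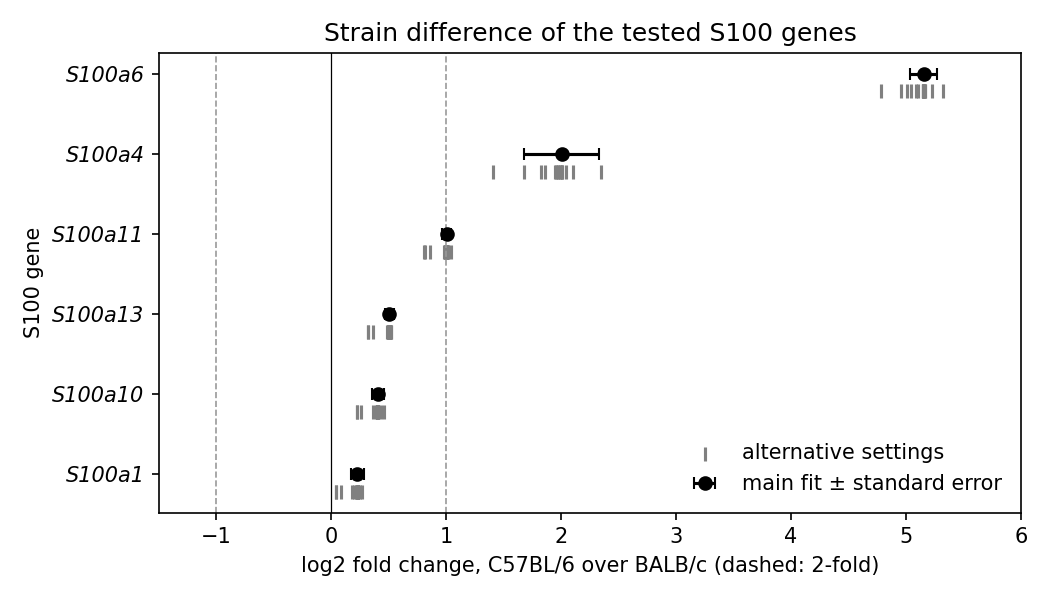
Log2 fold change (positive: higher in C57BL/6) for the 6 tested S100 genes with the standard error, together with the range over the alternatives. S100a6 stands at 5.16, S100a4 at 2.01 with the widest standard error, and S100a11 on the dashed 2-fold line, with S100a13, S100a10 and S100a1 between 0 and that line.

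S100 genes outside the set were close to absent. Of 9 such genes, 8 had a transcript in the tables, 3 had any read and none passed the filter of the edgeR fit. S100a7a, a relative of the human psoriasin gene, had 1, 0 and 1 counts in BALB/c and 4, 5 and 10 counts in C57BL/6. S100a14 had at most 3 counts in a library and S100b, the glial member, at most 1. S100g, S100z, S100a2, S100a7l2 and S100a16 had no read. The 7 fused-type genes, which join an S100 domain to a long repeat and serve in skin, were also near 0. Filaggrin (Flg) had 5 counts in S14 and 2 in S12, and 5 of the 7 had no read.

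Annexins are calcium-dependent membrane-binding proteins and the best known S100 partners. Of 12 annexins, 9 were tested, 2 were called higher in C57BL/6 and none lower, and the median log2 fold change was 0.39. For this list and those below, the shares over all tested genes were 13.3% called and 61.9% without overlap between the strains. Anxa1, the partner of S100a11, had 468, 244 and 410 counts in BALB/c and 2456, 2175 and 2522 in C57BL/6. Its log2 fold change was 2.75 ± 0.15 (edgeR adjusted p = 8.95e-07), and every C57BL/6 library was above every BALB/c library. The ratio of S100a11 to Anxa1 in mean TPM was 20.8 in BALB/c and 6.14 in C57BL/6. Anxa3 had 5, 0 and 4 counts in BALB/c and 31, 35 and 33 in C57BL/6, with a log2 fold change of 3.49 ± 0.52 (edgeR adjusted p = 0.000427) that rests on low BALB/c counts. It was 0.83, under the fold threshold, with limma on log2(TPM + 1), and 4.08 without S9.

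Anxa2, the partner of S100a10, was named after its values were seen. It had 88, 59 and 122 counts in BALB/c and 111, 110 and 132 in C57BL/6, with a log2 fold change of 0.48 ± 0.18 that did not pass (edgeR adjusted p = 0.0523). The mean level of S100a10 in TPM was 135 times that of Anxa2 in BALB/c and 126 times in C57BL/6. S100a10 was therefore measured in large excess over the transcript of its best known partner in both strains. Among the abundant annexins, Anxa6 had a log2 fold change of 0.38 (edgeR adjusted p = 6.39e-05), Anxa7 of 0.40 (adjusted p = 2.44e-05) and Anxa11 of -0.52 (adjusted p = 5.35e-06). Anxa5, with 237 and 265 CPM, had a log2 fold change of 0.16 (edgeR adjusted p = 0.00617), and its direction turned on the TPM scale. The changes of these 4 annexins were all under 2-fold.

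Of 18 intracellular targets of S100 proteins, 15 were tested and 1 was called, with a median log2 fold change of 0.13. The called gene was Il1a, which encodes the cytokine IL-1α and had 15, 12 and 10 counts in BALB/c and 97, 70 and 93 in C57BL/6. Its log2 fold change was 2.86 ± 0.24 (edgeR adjusted p = 1.09e-05), which rests on low BALB/c counts and was 1.17 with limma on log2(TPM + 1). Fgf1, the other export cargo named for S100a13, had no read. Myh9, the S100a4 target, was abundant in both strains at 1096 and 1590 CPM, with a log2 fold change of 0.54 (edgeR adjusted p = 3.2e-06).

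The S100a6 targets Cacybp and Sugt1 differed by far less than S100a6 itself. Cacybp, its binding protein in a ubiquitin ligase complex, went from 64.1 CPM in BALB/c cells to 59.2 in C57BL/6 cells, which did not pass (log2 fold change -0.12, edgeR adjusted p = 0.111). Sugt1, a co-chaperone bound by S100a6, had 69.0 and 75.5 CPM and a log2 fold change of 0.13 (edgeR adjusted p = 0.0282), with a direction that turned under plain library size and on the TPM scale. In mean TPM, S100a6 was 0.143 times Cacybp in BALB/c and 5.47 times in C57BL/6, and 0.195 and 6.31 times Sugt1. S100a6 transcripts were thus below those of both targets in BALB/c and above them in C57BL/6. Ahnak, a giant scaffold protein bound by S100a10 with annexin A2, had 205 and 272 CPM and a log2 fold change of 0.41 (edgeR adjusted p = 0.00318). The ratio of S100a10 to Ahnak in mean TPM was 19.4 in BALB/c and 19.5 in C57BL/6. Cacybp, Sugt1 and Ahnak were named after their values were seen.

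Atp2a2, the SERCA calcium pump acted on by S100a1, had a log2 fold change of -0.32 (edgeR adjusted p = 0.000109). The actin-capping subunits Capzb and Capza1 had log2 fold changes of -0.21 (adjusted p = 0.000828) and 0.17 (adjusted p = 0.0124) in the same edgeR fit, and that of Capza1 turned on the TPM scale.

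Of 8 receptors for secreted S100 proteins, 7 were tested and 2 were called, both higher in C57BL/6, with a median log2 fold change of 0.16. Alcam, an adhesion molecule of the immunoglobulin superfamily, had 57, 22 and 42 counts in BALB/c and 638, 590 and 697 in C57BL/6. Its log2 fold change was 4.07 ± 0.20 (edgeR adjusted p = 4.44e-07), and 2.21 with limma on log2(TPM + 1). Embigin (Emb) had 559, 349 and 444 counts in BALB/c and 1368, 1305 and 1813 in C57BL/6, with a log2 fold change of 1.79 ± 0.14 (edgeR adjusted p = 8.3e-06). Both receptors separated the strains without overlap, as did 61.9% of all tested genes. Ager, which encodes RAGE and was named after its values were seen, had only 7 to 15 counts in any library and a log2 fold change of 0.08 ± 0.35 (edgeR adjusted p = 0.875).

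The most abundant receptor was Bsg (basigin, CD147) with 389 and 366 CPM and a log2 fold change of -0.09 (edgeR adjusted p = 0.083). Tlr4, the lipopolysaccharide receptor that also binds the S100a8 and S100a9 pair, had 22.1 and 28.1 CPM and a log2 fold change of 0.34 (edgeR adjusted p = 0.00181). Nptn, at 65.3 and 69.0 CPM, and Mcam, at 2.70 and 3.05 CPM, had adjusted p of 0.142 and 0.592 in the edgeR fit, and the direction of Nptn turned with the scaling. Tlr4 was therefore present in both strains while the S100a8 and S100a9 transcripts were not detected in either.

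Calcium sensors with EF hands outside the S100 family served as a wider comparison. Of 38 such genes, 29 were tested and 1 was called. Their log2 fold changes ran from -0.80 to 2.27 around a median of 0.05. The called gene was Actn1, an actin cross-linker, with 12, 0 and 10 counts in BALB/c and 35, 31 and 35 in C57BL/6. Its log2 fold change of 2.27 ± 0.56 (edgeR adjusted p = 0.00784) rests on those low counts. The call was lost with unmatched transcripts kept (log2 fold change 2.29, adjusted p = 0.145) and with curated transcripts only (2.29, adjusted p = 0.0583), both in edgeR. The value was 0.35 with limma on log2(TPM + 1) and 2.85 without S9. Calm2 and Calm3, which encode calmodulin, had log2 fold changes of -0.07 and -0.09, with edgeR adjusted p of 0.199 and 0.0635. Lcp1, a leukocyte actin-bundling protein, had 1076 and 995 CPM and a log2 fold change of -0.11 (edgeR adjusted p = 0.0126).

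**Figure D4:**
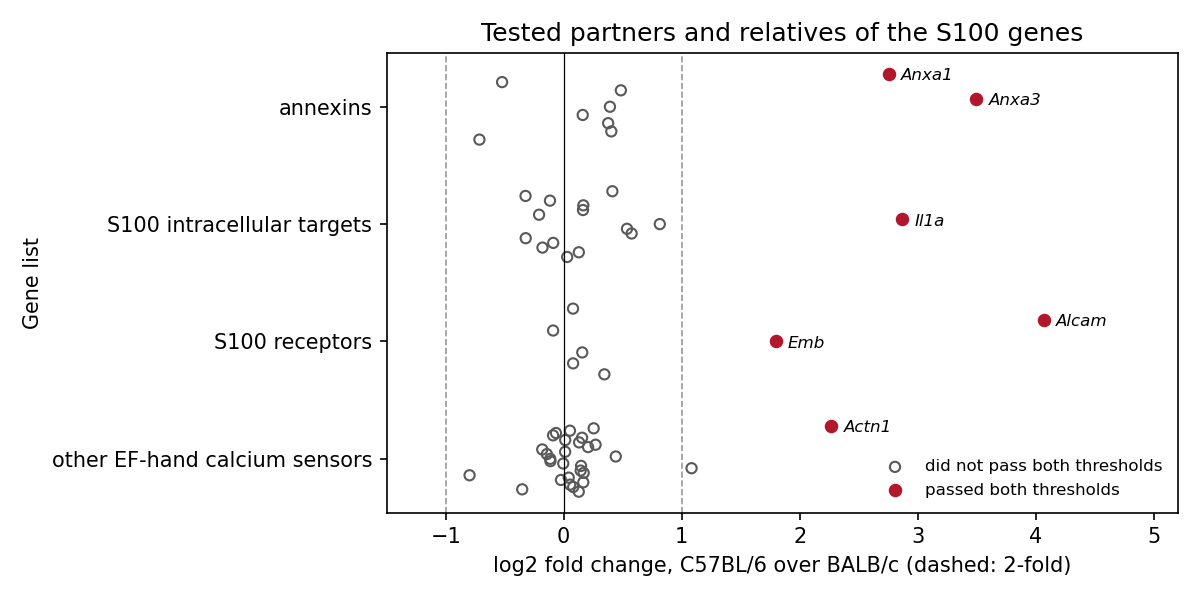
Log2 fold change (positive: higher in C57BL/6) for every tested gene of the lists of annexins, intracellular targets, receptors and other EF-hand sensors, with the dashed lines at 2-fold. Most points lie between the lines; the labelled called genes include Alcam at 4.07, Anxa3 at 3.49, Il1a at 2.86, Anxa1 at 2.75, Actn1 at 2.27 and Emb at 1.79.

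The genes around the S100 genes on chromosome 3 were taken as a further comparison. Of 126 annotated genes between the outermost S100 genes or among the 20 beyond each end, 16 were tested and 3 were called, with a median log2 fold change of -0.04. Only 2 of the 86 genes lying between the S100 genes were tested, Ivl and Gm35439, and the other 14 tested genes all lay beyond the S100a13 end. None of the 20 genes beyond the S100a10 end was tested. Involucrin (Ivl), a skin envelope protein, had 0, 0 and 1 counts in BALB/c and 51, 29 and 42 in C57BL/6 (edgeR adjusted p = 1.46e-05). Loss of BALB/c reads to sequence variants was not tested for Ivl either. Gm35439, a long noncoding RNA, had 9, 11 and 11 counts in BALB/c and 23, 16 and 24 in C57BL/6, with a log2 fold change of 1.08 ± 0.28 (edgeR adjusted p = 0.0102). The call of Gm35439 was lost with DESeq2 (log2 fold change 1.09, adjusted p = 0.0995) and in 4 other alternatives. Npr1, a natriuretic peptide receptor, had 27, 21 and 21 counts in BALB/c and 7, 9 and 4 in C57BL/6, and fell by 1.69 ± 0.39 on the log2 scale (edgeR adjusted p = 0.00588).

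The nearest tested genes that were not called had small differences. Chtop, Snapin, Ilf2 and Ints3 had log2 fold changes of -0.15, 0.33, -0.13 and -0.27, with edgeR adjusted p of 0.0055, 0.000197, 0.0776 and 0.000459. The 14 tested flanking genes had a median of -0.08 and ran from -1.69 to 0.33. All 14 are on the same side of the S100 genes, so they say nothing of the other side.

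**Figure D5:**
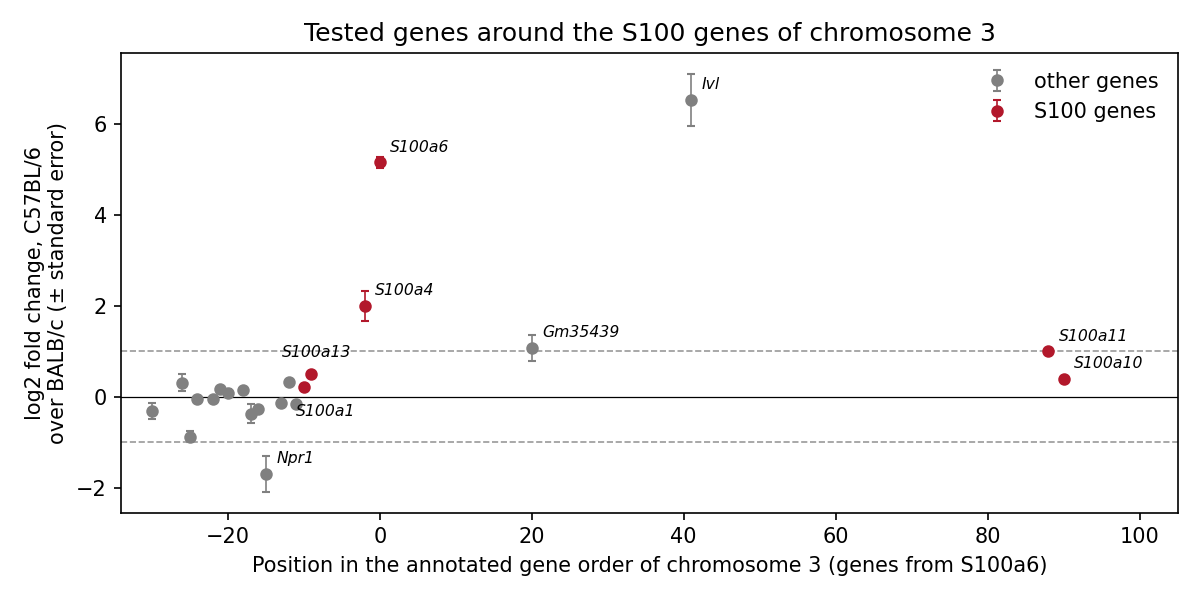
Log2 fold change (positive: higher in C57BL/6) with its standard error (vertical axis) for the tested genes around the S100 genes, in the annotated order along chromosome 3 counted from S100a6 (horizontal axis). The 14 tested flanking genes all lie to the left of the S100 genes, between -1.69 and 0.33. S100a6 stands at 5.16, and to its right the tested genes are Gm35439 at 1.08, Ivl, which had 1 count in all BALB/c libraries, and S100a11 and S100a10 at 1.002 and 0.40.

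Markers of other cell types moved with the strain for some lists. Of 8 basophil markers, 4 were called higher in C57BL/6 (Mcpt8, Prss34, Cebpa and Ccl9), and the summed level ran from 406 to 418 CPM in BALB/c and, higher, from 512 to 523 CPM in C57BL/6. The paper lists Mcpt8 and Prss34 among the proteases that differed between these BMMCs. Il18r1 was lower in C57BL/6 (log2 fold change -0.54, edgeR adjusted p = 0.00415), and Cd200r3, at 306 to 315 CPM in BALB/c and 291 to 304 CPM in C57BL/6, had a log2 fold change of -0.066 that did not pass (edgeR adjusted p = 0.153). The macrophage list summed to 0.705 to 1.63 CPM and 13.3 to 13.9 CPM. Its rise came from Adgre1, with 16, 0 and 16 counts against 304, 268 and 365, and Cd68, while C1qa, C1qb, C1qc and Csf1r were at 0 in every library. The dendritic cell list summed to 9.74 to 11.4 CPM and 38.0 to 39.8 CPM, with Itgax at 243, 243 and 318 counts against 1239, 996 and 1309. The dendritic marker Cd74 went the other way, and H2-Aa had at most 1 read in a library.

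The erythroid list summed to 0.266 to 0.534 CPM in BALB/c and 6.04 to 6.19 CPM in C57BL/6. The globin gene Hbb-bt had 0 counts in each BALB/c library and 186, 160 and 214 in C57BL/6, where it held most of the sum. Whether the BALB/c allele of Hbb-bt matches the reference transcript was not tested. Hba-a1 had fewer counts in C57BL/6 (10, 10 and 7 in BALB/c against 5, 2 and 3), as had Alas2 (5, 2 and 2 against 1, 0 and 1). Hba-a1 and Alas2 did not pass the filter on low counts and were not tested. Fibroblast markers, which accompany high S100a6 and S100a4 in connective tissue, summed to at most 0.0848 CPM, and Col1a2, Dcn, Lum and Pdgfra were at 0. Eosinophil markers summed to at most 0.850 CPM, and T or NK cell markers to 4.80 to 5.65 CPM in BALB/c against 4.44 to 5.10 CPM in the other strain. The part of cells other than mast cells in the higher S100a6, S100a4 and S100a11 levels of C57BL/6 was not tested.

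The genes whose pattern over the 6 libraries was most like that of S100a6 were Tcp11l1, Zwint, Flywch1, Il16 and Vwa8. They were the top 5 by Pearson correlation of log2(CPM + 0.5) among 9200 protein-coding genes with a mean CPM of 5 or more, members left out. Of the 9200 genes, 463 had a correlation of 0.99 or more and 1974 of 0.9 or more. These points share their libraries and the strain split, so a high value says mainly that a gene was higher in C57BL/6 with little spread. Il16, a leukocyte cytokine, had 18.3, 15.8 and 14.6 CPM in BALB/c against 102, 103 and 110.4 CPM in the C57BL/6 libraries. Zwint, a kinetochore protein, had a correlation as high with a log2 fold change of only 0.48, against 5.16 for S100a6.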

How the data were processed

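RNA of the BMMC libraries was prepared with a stranded mRNA kit and sequenced as read pairs. Per the submitters' processing notes and the study's methods, the authors checked reads with FastQC 0.11.5 and quantified transcripts with Salmon 0.8.2, naming GRCm39 (mm39). The deposited files list, for each of 129698 RefSeq transcripts, an estimated count, TPM and the transcript's length and effective length, as the authors' Salmon run gave them. Salmon divides reads among similar transcripts, so estimated counts of overlapping or copied genes can shift.

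Transcripts were assigned to genes through RefSeq (GRCm38.p6 names): 106430 matched, 70620 of them in the same version, giving 35293 genes, of which 18886 had reads. Unmatched transcripts held 2.69 to 3.12% of reads and were left out. Counts were summed per gene and rounded, and TPM was summed. CPM used TMM-scaled library sizes (factors 0.94 to 1.05). Genes passing filterByExpr (min.count 10) were tested with edgeR 4.0.16 (quasi-likelihood, Benjamini-Hochberg over 12458 genes) in R 4.3.3, using all 6 libraries and no covariate. The biological coefficient of variation was 0.0665. At adjusted p under 0.05 and a fold change above 2, 1653 genes (13.3%) were called, 963 higher in C57BL/6 and 690 in BALB/c. The test was checked on simulated data. Standard errors are the log2 fold change divided by the root of the F statistic.

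Alternatives were DESeq2 1.42.0, DESeq2 size factors, plain library size, a transcript-length offset, limma 3.58.1 on the log2 of TPM with 1 or 0.1 added, no filter on low counts, a minimum of 10 counts per library, unmatched transcripts kept, curated transcripts only, and each library left out. The members and gene lists were chosen with earlier results of these data known. Named were all members, list genes past both thresholds, up to 4 more per list by mean CPM (for neighbours, by nearness to S100a6), and 5 genes by correlation; the text says where a gene falls outside this rule, and 1 gene that the rule names is not reported here. Sequence words and motifs were matched against GENCODE vM39 and GRCm39. Library numbers were not shared between strains.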

Additional observations from a re-analysis of the deposited data

How the results depend on the processing

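Against 1653 genes called, 1017 were called when every library had to hold 10 counts and 799 with limma on log2(TPM + 1). Plain library size moved the median log2 fold change of all genes by -0.14, and limma on log2(TPM + 1) and log2(TPM + 0.1) by -0.14 and -0.17. The share of calls higher in C57BL/6 was 58.3% in the main analysis and 50.3%, 54.3% and 50.0% in these. S100a11 fell under 2-fold with plain library size (0.86), the length offset (0.99), no filter (0.996), limma on both TPM scales (0.81 and 0.81) and unmatched transcripts kept (0.99). With a library left out it ran from 0.98 to 1.04, and the call was lost without S10, S11 or S14. Without a filter, 1 other S100 gene, S100a7a, was called. Called annexins fell to 1 with 10 counts in every library and to 1 with limma on log2(TPM + 1). Called EF-hand sensors fell to 0 with edgeR at 10 counts in every library, with unmatched transcripts kept and with curated transcripts only, and to 0 with limma on log2(TPM + 1). In each of these, 17 had an unadjusted p under 0.05. Leaving out a library gave 1 to 2. Called neighbours fell to 0 with edgeR at 10 counts in every library (7 at unadjusted p under 0.05) and to 0 with limma on log2(TPM + 1) (10 at unadjusted p under 0.05). Under plain library size the direction turned for Nptn (-0.065), Sugt1 (-0.017) and Ager (-0.064). With limma on log2(TPM + 1) and log2(TPM + 0.1) it turned for Anxa5 (-0.018 and -0.018), Capza1 (-0.011 and -0.011), Nptn (-0.10 and -0.10), Sugt1 (-0.047 and -0.048) and Ager (-0.015 and -0.029). Ager ran from -0.15 to 0.22 with a library left out. The cause was not tested. No paired analysis was possible because the strains share no replicate numbers.

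Depth limits S100a3, S100a5, S100a8 and S100a9, which held too few reads to be tested. S100a4, Anxa3, Il1a, Actn1, Gm35439 and Ivl rest on 17 reads or fewer in each BALB/c library.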
